A study of Mus musculus with 10 samples.

Results

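The synaptic genes described here are 35 genes that encode proteins of the synaptic vesicle, of its fusion with the presynaptic membrane, of synaptic adhesion and of the postsynaptic receptor apparatus. They were taken by symbol from a deposited expression table of 21937 genes, and all 35 were found. By role they comprise 9 vesicle proteins, 6 proteins of vesicle docking and fusion, 4 proteins of the active zone, vesicle recycling and axonal transport, 5 adhesion molecules, 4 postsynaptic scaffolds and 7 neurotransmitter receptor subunits. RNA came from differentiating mouse embryonic stem (ES) cells of a C57BL/6 background in 10 libraries, with a single library behind each condition on each day. In SFEB culture, serum-free floating aggregates that lead ES cells towards neuroectoderm, the libraries were WT, Tet3 KO and Tet3 KO given Dkk, each on day 6 and day 10. In medium with fetal bovine serum (FBS), which does not favour neural differentiation, control cells and cells overexpressing Tet3 were taken on day 4 and day 7. Tet3 is a dioxygenase that acts on methylated cytosine. Dkk (Dickkopf) proteins block Wnt signalling from outside the cell. The knockout was made from a floxed Tet3 exon with transiently expressed Cre, per the labels. Which Dkk protein and dose were used, what drives Tet3 overexpression, and how many clones stand behind each genotype is not stated in the labels.

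Chemical synapses release transmitter when a loaded vesicle, docked at the active zone, fuses with the presynaptic membrane. Fusion is driven by the SNARE proteins Snap25, syntaxin and Vamp2 and triggered by calcium through synaptotagmins. Neurexins on the presynaptic side bind neuroligins on the postsynaptic side, where scaffolds such as Dlg4 (PSD-95) hold glutamate receptors and gephyrin (Gphn) holds inhibitory receptors. Many of these genes are switched on as neurons mature, and several are known targets of Rest, a repressor that keeps neuronal genes silent in other cells.

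The values are RPKM (reads scaled to transcript length and library total), so levels of different genes can be compared per length. Depth, as estimated, ranged from 10100000 to 11300000 reads for 5 of the SFEB libraries, and was 37000000 in the day 10 Dkk-treated knockout and 17300000 to 44200000 in the FBS libraries. In 6 of the 10 libraries the next best total was about 2 times the one used, and counting intervals would be narrower with it. Tet3 itself was at 0.96 and 5.87 RPKM (control, day 4 and day 7) and, with overexpression, at 12.5 and 14.1 RPKM. SFEB day 6 values of Tet3 were 8.11, 6.59 and 7.64 RPKM (WT, Tet3 KO, Tet3 KO Dkk), and those of day 10 were 10.2, 14.3 and 13.1 RPKM. As only 1 exon was deleted, whole-gene values do not check the genotype. The summed RPKM of 10 pluripotency markers was 936.9 to 3736 in FBS and 17.95 to 88.3 in SFEB libraries, and that of 18 pan-neuronal markers was 193 to 338 in SFEB libraries on day 6 and 3226 to 3677 on day 10. Of 11 glial markers, the astrocyte genes Gfap and S100b did not exceed 0.13 RPKM in any library, but others were expressed. On SFEB day 10 the 11 summed to 28.99, 57.8 and 30.85 RPKM (WT, Tet3 KO, Tet3 KO Dkk), with 5, 7 and 6 of them at 1 RPKM or more. The highest was Slc1a3, at 12.01, 26.6 and 9.12 RPKM. In such bulk RNA, fewer cells of a type and less RNA per cell cannot be told apart.

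Synaptic transcripts were scarce in 7 of the 10 libraries and abundant in the 3 SFEB libraries of day 10. The summed level of the 35 genes was 83.5, 60.5, 61.9 and 68.7 RPKM in the FBS libraries (control and overexpressing on day 4, then on day 7). In SFEB culture it was 134, 94.7 and 131 RPKM on day 6 in WT, Tet3 KO and Tet3 KO Dkk, and 720.4, 689.5 and 659 RPKM on day 10. SFEB values below follow this order of conditions. The day 10 libraries lay far above all others and close to each other. Between 12 and 20 of the 35 genes reached 1 RPKM in the FBS and day 6 libraries, and 31 to 33 did on day 10. Of all genes in the table, 50.3 to 52.3% and then 53.3 to 55.4% did. Only 1 to 4 of the 35 reached 10 RPKM before day 10, against 19 to 20 on day 10. Of all genes, 26.6 to 28.8% and then 30.4 to 31.9% did. At least 1 RPKM in some library of the culture was required for a ratio, and 34 of the 35 genes met this in SFEB culture. Grin2b, an NMDA receptor subunit, did not, with at most 0.27 RPKM. Pclo and Dlgap1 met it through the day 10 knockout alone, at 1.18 and 1.08 RPKM, and Gabra2 through the day 10 Dkk-treated knockout alone, at 1.22 RPKM. In SFEB, 14 of the 34 (Syt1, Syt4, Syn2, Rab3c, Bsn, Pclo, Nrxn3, Nlgn1, Nlgn3, Dlgap1, Gria1, Gria2, Grin1 and Gabra2) reached 1 RPKM on day 10 only, so counts over the 34 are not counts of all members. In FBS 17 of the 35 met it.

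**Figure D1:**
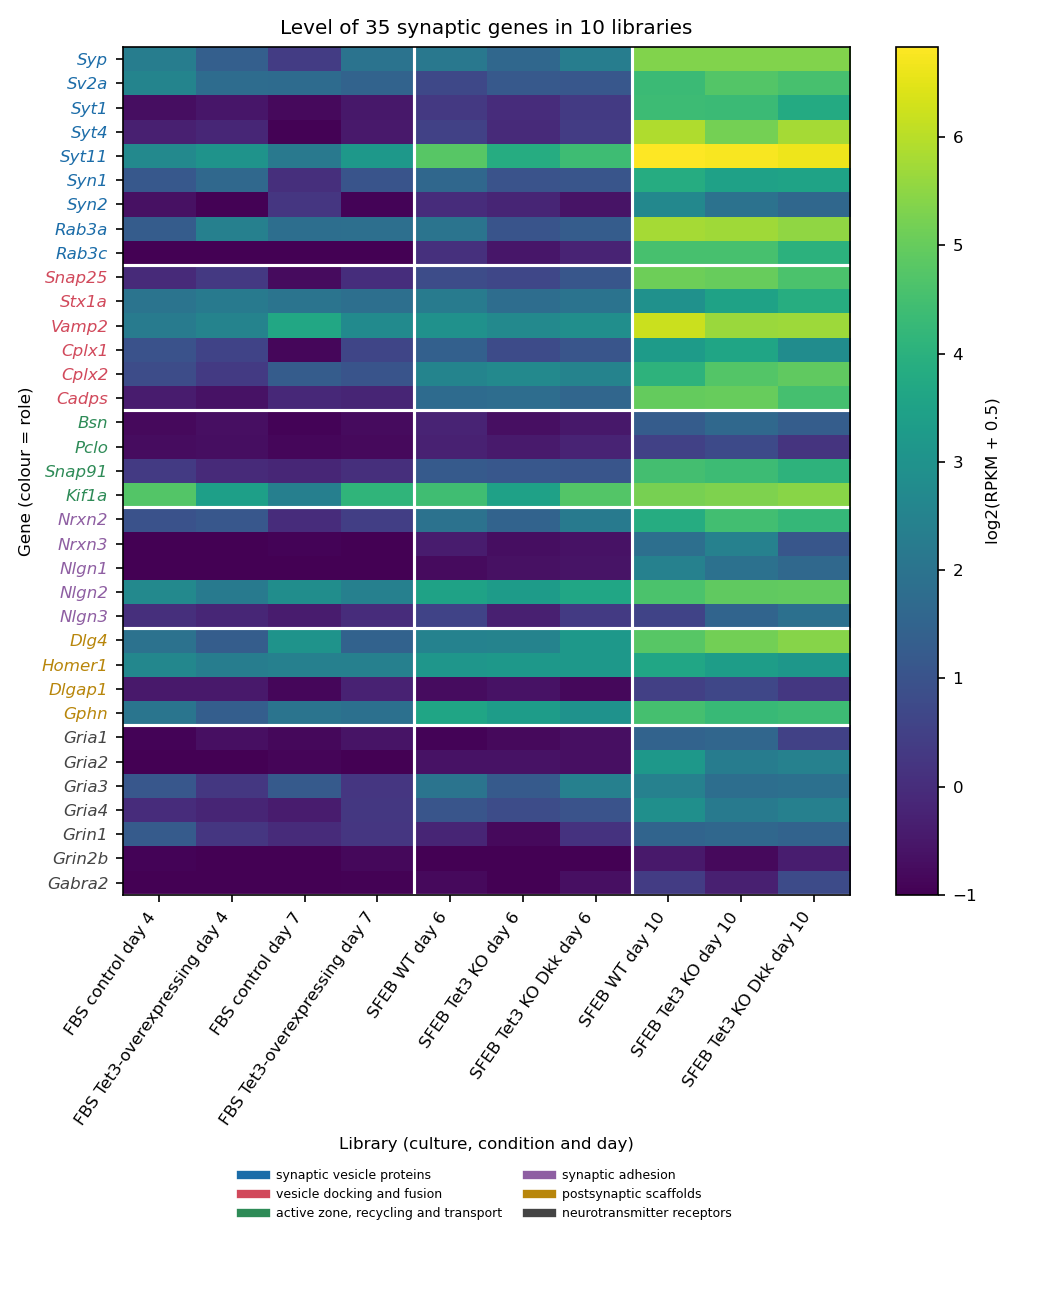
Levels of the 35 synaptic genes (rows, grouped by role with names coloured by role) in the 10 libraries (columns), as log2(RPKM + 0.5), with 1 library per column. The 3 SFEB day 10 columns at the right stand out for nearly every gene. Kif1a, Homer1, Vamp2, Nlgn2 and Syt11 are at 3.95 RPKM or more in every column.

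Between day 6 and day 10 of SFEB culture, synaptic genes of every role rose. Of the 34 genes compared, 27 were at least 2-fold higher on day 10 in WT, 30 in the knockout and 30 in the Dkk-treated knockout, and none was 2-fold lower. Among all 12912 genes compared, 16.9, 21.1 and 17.6% were higher and 7.98, 8.01 and 6.81% lower. The median log2 ratio over all 35 genes was 2.04, 2.47 and 1.97, against 0.09, 0.16 and 0.14 over all genes compared. In all 3 conditions together, 26 synaptic genes were at least 2-fold higher (11.5% of all genes) and none 2-fold lower (2.82%). For 32 of the 34, every day 10 library lay above every day 6 library (34.7% of all genes), and these 32 also exceeded the 4 FBS libraries (27.2%). The exceptions were Homer1 and Gria3. As 14 of the 34 passed the filter through day 10 alone, the 20 that reached 1 RPKM on day 6 were also counted, a choice made after seeing the data. Of these 20, a gain of 2-fold or more was seen for 15, 17 and 17 (13.5, 15.9 and 13.6% of the 11745 genes that reached 1 RPKM on day 6), and a 2-fold loss for none (8.77, 8.79 and 7.48%). Without any filter, all 35 gave the same counts of 27, 30 and 30. With limma, in which the 3 conditions stand in for replicates of the day (3 residual degrees of freedom, Benjamini-Hochberg adjustment over 13757 genes), 30 of 34 rose and none fell, where 27% of all genes rose and 16.4% fell. Among the 20 genes at 1 RPKM on day 6, 17 rose (25.1% of all such genes) and none fell (19.1%). The median limma change was 2.31 on the log2 scale, against 0.11 for all genes. All 9 vesicle and all 6 fusion genes passed, as did 3 of 4 active zone genes, 4 of 5 adhesion genes, 3 of 4 scaffolds and 5 of the 6 receptors tested. These counts by role include the genes that met the filter through day 10 alone, which favours a rise. Among the receptors called, these were Gria1, Gria2, Grin1 and Gabra2. In this model a difference between conditions in the day change counts as spread. Changes from limma are given below on the log2 scale. With 1 library per condition and day, no single comparison has a replicate or a test of its own.

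**Figure D2:**
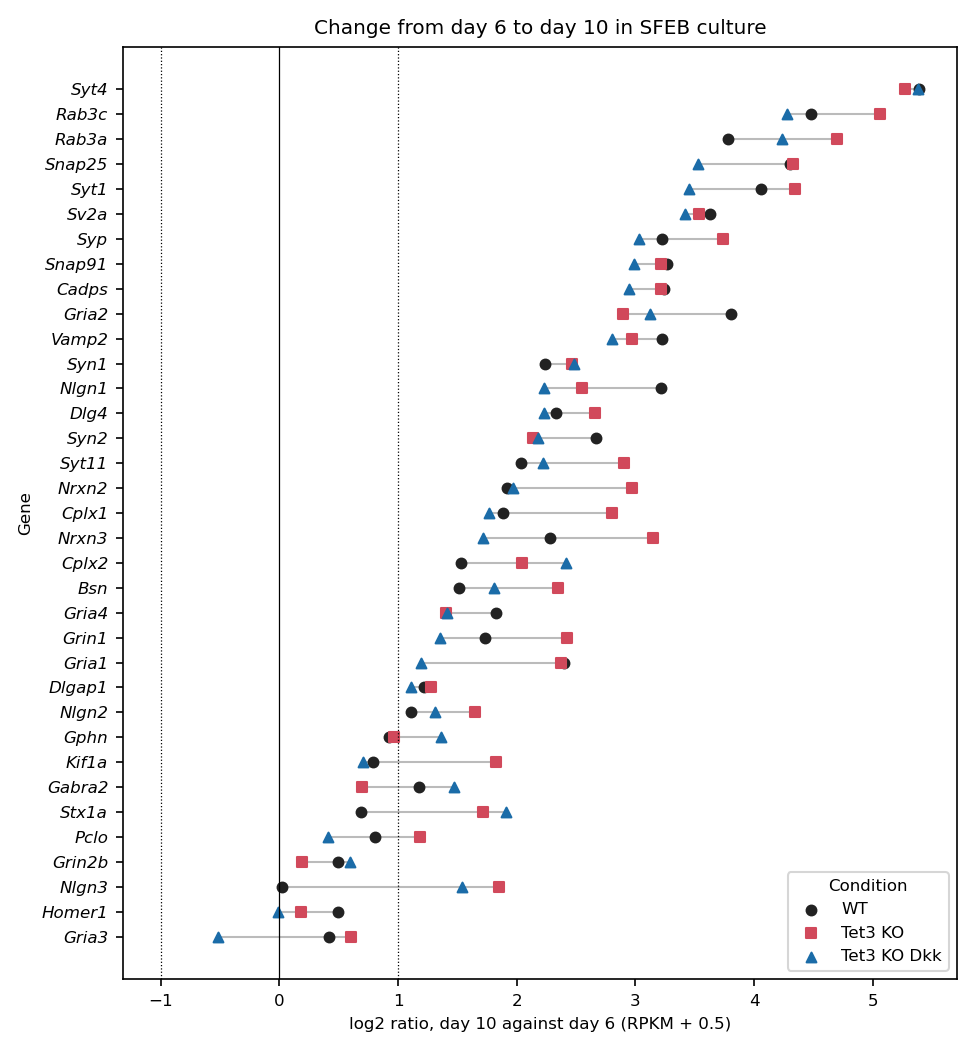
Log2 ratio of day 10 against day 6, from log2(RPKM + 0.5), for each synaptic gene (rows) in WT, Tet3 KO and Tet3 KO Dkk (1 point each, 1 library per day). Points of Syt4, at the top, lie close together, with ratios of 5.27 to 5.39, while those of Rab3c, next below, range from 4.28 to 5.06. Homer1 and Gria3, at the bottom, each have a ratio below 0 in Tet3 KO Dkk, and Nlgn3 is at 0.02 in WT.

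The promoters of the genes differ widely in CpG content, shown here for a gene with a large gain and few CpG sites (Rab3c), a gene with a large gain and many (Snap91) and a gene whose change did not pass the test (Homer1), because Tet3 acts on methylated cytosine, which in mammals lies mostly in CpG. DNA methylation was not analysed here. Each sequence is the 250 bases upstream of a RefSeq start (GRCm38.p6), 5′ to 3′ on the gene's strand, with CpG in capitals.
Rab3c, minus strand, chr13:110280207-110280456, 7 CpG: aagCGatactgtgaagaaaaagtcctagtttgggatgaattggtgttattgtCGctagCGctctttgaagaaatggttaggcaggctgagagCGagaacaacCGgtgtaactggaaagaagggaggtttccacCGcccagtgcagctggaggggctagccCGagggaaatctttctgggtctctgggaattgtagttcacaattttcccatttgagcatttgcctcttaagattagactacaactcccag
Snap91, minus strand, chr9:86880709-86880958, 26 CpG: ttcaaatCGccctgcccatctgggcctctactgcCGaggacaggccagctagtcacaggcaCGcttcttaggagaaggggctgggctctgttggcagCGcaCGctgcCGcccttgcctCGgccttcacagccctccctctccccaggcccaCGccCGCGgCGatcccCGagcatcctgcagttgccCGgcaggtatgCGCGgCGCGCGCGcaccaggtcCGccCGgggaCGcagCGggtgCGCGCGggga
Homer1, plus strand, chr13:93303507-93303756, 21 CpG: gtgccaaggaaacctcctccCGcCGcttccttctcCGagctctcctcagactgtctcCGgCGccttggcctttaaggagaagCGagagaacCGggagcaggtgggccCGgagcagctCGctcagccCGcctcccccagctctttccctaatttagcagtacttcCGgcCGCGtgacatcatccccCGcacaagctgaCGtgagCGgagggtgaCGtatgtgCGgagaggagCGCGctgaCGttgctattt
A window was matched for 27 of the 35 genes (38 windows). In the window richest in CpG, the median was 16 CpG over the 27 genes (range 7 to 34), against 12 over 14701 genes of the table. Over these 27 genes, CpG number and mean day gain had a Spearman rho of -0.43, a description over genes measured in the same libraries. The letters TCAGCACC, which begin the Rest recognition element, were found on either strand in 2 of 38 windows (5.26%), against 1.34% of 17972 windows of all genes. Its later letters GGACAG, searched separately, occurred in 9 of 38 windows (23.7%), against 19.4%. Both windows with the first letters are shown, with those letters in capitals.
Syn1, minus strand, chrX:20921123-20921152: gatTCAGCACCgcggtcagagccttcgcct
Nlgn1, minus strand, chr3:26154112-26154141: agtTCAGCACCctggttactataacagcaa
A match of letters is a description and does not show binding.

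Vesicle proteins had the highest median limma change of the roles, 3.53, followed by the fusion proteins with 2.58. Syt4 stood at 0.93, 0.45 and 0.82 RPKM on day 6, then at 59.5, 36.25 and 54.5 on day 10. Syt4, a synaptotagmin of dense-core and other vesicles, thus went from under 1 RPKM to over 10 RPKM in each condition, a limma log2 change of 5.35 (SE 0.13, adjusted p = 0.00028). Rab3c stood at 0.56, 0.2 and 0.35 RPKM on day 6, then at 23.2, 22.9 and 16.01 on day 10. Rab3c, whose CpG-poor promoter is shown above, is a small GTPase of synaptic vesicles and rose by 4.61 (SE 0.18, adjusted p = 0.00028). Rab3a stood at 3.51, 1.53 and 1.94 RPKM on day 6, then at 54.75, 52.3 and 45.4 on day 10. Rab3a, its better known relative that regulates release, rose by 4.24 (SE 0.27, adjusted p = 0.000554). Syt1 stood at 0.73, 0.49 and 0.77 RPKM on day 6, then at 20.01, 19.6 and 13.4 on day 10. For Syt1, the calcium sensor of fast release, the change was 3.95 (SE 0.20, adjusted p = 0.00038). Day 10 values of all 4 genes lay above every other library, and the smallest gain over conditions was 5.27 for Syt4, 4.28 for Rab3c, 3.78 for Rab3a and 3.45 for Syt1. In FBS, Syt4 was at 0.3 and 0.39 RPKM (control and overexpressing, day 4), then at 0.02 and 0.23 RPKM. Syt1 was there at 0.11 and 0.2 RPKM, then at 0.08 and 0.21 RPKM, and Rab3c was listed at 0 except for 0.01 RPKM in day 7 overexpressing cells. These transcripts were thus all but absent from FBS culture, unlike Rab3a, whose values there are given with the overexpression results.

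Syt11, a synaptotagmin that does not bind calcium, was the most abundant synaptic gene of the set on day 10. It stood at 27.3, 13.98 and 20.7 RPKM on day 6 and 114, 108 and 98.01 RPKM on day 10, and in FBS it was at 6 and 7.7 RPKM on day 4 and 3.95 and 8.45 RPKM on day 7 (control first). Expression before day 10 set it apart from Syt4 and Rab3c, and its rise was 2.39 (SE 0.23, adjusted p = 0.00164). Syp (synaptophysin), the major membrane protein of synaptic vesicles, rose by 3.33 (SE 0.47, adjusted p = 0.00431). Its day 10 values of 40.55, 40.5 and 39.98 RPKM were the most even of the vesicle genes. Sv2a, a vesicle transporter-like protein that binds the antiepileptic levetiracetam, rose by 3.53 (SE 0.15, adjusted p = 0.00028). Synapsins tether vesicles to each other and to actin. Syn1 rose by 2.396 and Syn2 by 2.33, with day 10 levels of 10.6 to 13.9 RPKM for Syn1. Syn2 had 0.5, 0.38 and 0.17 RPKM on day 6 and 5.87, 3.37 and 2.54 RPKM on day 10, with 0.02 to 0.68 RPKM in FBS.

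All 6 docking and fusion genes rose. Snap25 stood at 1.25, 1.1 and 1.64 RPKM on day 6, then at 34.1, 31.7 and 24.1 on day 10. FBS values of Snap25 were 0.46 and 0.74 RPKM, then 0.09 and 0.51 RPKM. Snap25, a SNARE of the presynaptic membrane, had a change of 4.05 (SE 0.21, adjusted p = 0.000407). Vamp2 stood at 7.37, 5.99 and 6.89 RPKM on day 6, then at 73.1, 50.4 and 51.2 on day 10. Vamp2 (synaptobrevin), the SNARE on the vesicle, was the most abundant of this role on day 10 and was already expressed in FBS, at 4.26 and 5.23 RPKM (control and overexpressing, day 4), then at 12.5 and 6.18 RPKM. It rose by 3.001 (SE 0.25, adjusted p = 0.0012). Cadps, a priming factor for dense-core vesicles, rose by 3.13, and the complexins Cplx1 and Cplx2, which clamp and assist the SNARE complex, by 2.15 and 1.996. Stx1a, the syntaxin partner of Snap25, had the smallest change of the role, 1.44 (SE 0.26, adjusted p = 0.00918). It ran at 4.3, 2.99 and 3.44 RPKM on day 6 and 7.22, 10.99 and 14.3 RPKM on day 10, and its call was lost when either knockout condition was left out (adjusted p = 0.0503 without Tet3 KO and 0.058 without Tet3 KO Dkk). Without the filter on low values the limma calls of Stx1a, Cplx1, Pclo and Grin1 ended, with adjusted p of 0.0538 to 0.067.

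Among active zone and transport genes the pattern was mixed. Snap91 (AP180), a clathrin adaptor of vesicle recycling, was at 1.84, 1.7 and 1.6 RPKM on day 6 and 22.1, 19.97 and 16.1 RPKM on day 10, a rise of 3.16 (SE 0.17, adjusted p = 0.000417); its CpG-rich promoter is shown above. Bsn and Pclo, the giant scaffolds Bassoon and Piccolo of the active zone, stayed low, with at most 2.66 and 1.18 RPKM. Bsn rose by 1.89 and Pclo by 0.797, the latter losing its call without the WT libraries (adjusted p = 0.0765). Kif1a, the kinesin that carries synaptic vesicle precursors along axons, behaved differently. It stood at 21.2, 10.7 and 26.1 RPKM on day 6 and 37.1, 39.4 and 42.97 RPKM on day 10. In FBS its levels were 26.3 and 10.25 RPKM on day 4 and 4.74 and 16.9 RPKM on day 7 (control first). Kif1a was the most abundant of the 35 genes in 3 of the 4 FBS libraries, and its change of 1.11 (SE 0.58, adjusted p = 0.174) did not pass. With the SFEB libraries alone in the model it did, at an adjusted p of 0.0226.

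Adhesion molecules ranged from nearly absent to well expressed before day 10. Nlgn2, the neuroligin of inhibitory synapses, was the most abundant, at 10.96, 9.24 and 12.03 RPKM on day 6 and 24.2, 30.02 and 30.6 RPKM on day 10, with FBS values of 6 and 4.07 RPKM (control and overexpressing, day 4), then 6.66 and 4.84 RPKM. It rose by 1.36 (SE 0.15, adjusted p = 0.00232). Nlgn1, its counterpart at excitatory synapses, was listed at 0 in all 4 FBS libraries and at 0.09, 0.14 and 0.17 RPKM on day 6 and 4.98, 3.25 and 2.65 RPKM on day 10, a rise of 2.67 (SE 0.21, adjusted p = 0.000956). Neurexins bind both, and Nrxn2 rose by 2.29 and Nrxn3 by 2.38. Nrxn3 had 0.25, 0.11 and 0.15 RPKM on day 6 and 3.15, 4.9 and 1.63 RPKM on day 10, with at most 0.03 RPKM in FBS. Nlgn3 stood at 0.98, 0.3 and 0.77 RPKM on day 6, then at 1, 2.38 and 3.18 on day 10. The WT culture therefore held nearly the same Nlgn3 level on both days while both knockout cultures were higher on day 10, and the overall change of 1.13 (SE 0.37, adjusted p = 0.0539) did not pass. FBS values of Nlgn3 were 0.26 to 0.54 RPKM. Without the WT libraries it passed, at an adjusted p of 0.0179.

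Of the scaffolds, Dlg4, which anchors glutamate receptors, showed the largest rise. It was at 5.09, 5.12 and 8.57 RPKM on day 6 and 27.6, 35.1 and 41.97 RPKM on day 10, a change of 2.41 (SE 0.21, adjusted p = 0.00137). In FBS, Dlg4 was at 3.41 and 2 RPKM (control and overexpressing, day 4), then at 7.71 and 2.23 RPKM. Gphn, the scaffold of inhibitory synapses, rose by 1.09, with a range of 7.47 to 11.55 RPKM on day 6 and of 19.01 to 22.4 RPKM on day 10. Dlgap1, which links Dlg4 to the deeper scaffold, rose by 1.21 yet reached at most 1.08 RPKM. Homer1, which ties metabotropic receptors to the scaffold, was at 8.24, 8.51 and 8.53 RPKM on day 6 and 11.8, 9.74 and 8.44 RPKM on day 10. Its levels on both days overlapped, FBS levels were 4.47 to 5.62 RPKM, and the change of 0.22 (SE 0.15, adjusted p = 0.292) did not pass.

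No receptor subunit exceeded 8.58 RPKM in any library, and only Gria3 and Gria4 reached 1 RPKM on day 6. Gria2, the AMPA receptor subunit that sets the calcium permeability of the channel, was the most abundant on day 10. It was at 0.15, 0.15 and 0.12 RPKM on day 6 and 8.58, 4.34 and 4.9 RPKM on day 10, listed at 0 in FBS except for 0.04 RPKM in the day 7 control, and rose by 3.27 (SE 0.20, adjusted p = 0.000497). Other AMPA subunits differed from it. Gria1 rose by 1.99 and Gria4 by 1.55. Gria3 stood at 3.56, 1.83 and 4.78 RPKM on day 6, then at 4.91, 3.05 and 3.18 on day 10. Gria3 values of both days overlapped, those in FBS were 1.67 and 0.71 RPKM, then 1.82 and 0.68 RPKM (control first), and its change of 0.17 (SE 0.24, adjusted p = 0.609) did not pass. Grin1, the obligatory NMDA receptor subunit, rose by 1.83, with 2.31 to 2.55 RPKM on day 10, whereas its partner Grin2b stayed below the filter. Gabra2, a GABA-A receptor subunit, rose by 1.11, with 0.08, 0 and 0.12 RPKM on day 6 and 0.81, 0.31 and 1.22 RPKM on day 10. In FBS it was listed at 0 except for 0.02 RPKM in day 7 overexpressing cells.

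Other genes of the synapse and of the neuron moved in the same direction. Of 138 further synaptic genes tested from 6 lists, 94 rose and 5 fell, with a median of 1.24. Over all 13757 genes tested, limma called 27% higher and 16.4% lower, with a median of 0.11. By list, 25 of 40 release genes rose and 1 fell, 11 of 19 recycling genes rose and 2 fell, and 14 of 25 scaffolds rose and 2 fell. No member fell among the adhesion (18 of 23 rose), glutamate receptor (11 of 14) and other receptor genes (15 of 17). The largest changes among those at least 2-fold higher in all conditions included Cbln2, a synaptic organiser (3.82), and Napb, which helps to recycle SNAREs (3.58). Chrnb2 and Gabbr1, an acetylcholine and a GABA-B receptor subunit, had changes of 3.33 and 3.22. All 18 pan-neuronal markers rose, with a median of 3.74, and 11 of 12 neuroendocrine markers did, so neuronal markers moved with the synaptic genes, and their part in the result was not tested. Rest was at 20.2 to 42.96 RPKM in FBS, at 8.74, 11 and 10.7 RPKM on SFEB day 6 and at 4.37, 5.25 and 5.06 RPKM on day 10. It fell by 0.98 between the SFEB days (SE 0.15, limma adjusted p = 0.00541). In the list of Rest and its corepressors, 2 of 10 rose and 2 fell, near the shares over all genes.

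On day 6 most synaptic genes were somewhat lower in Tet3 KO than in WT, but none by 2-fold. Ratios of conditions are log2 values, here and below. The ratio was below 0 for 26 of the 35 genes and above 0 for 8, with a median of -0.27. Over all 12912 genes, 49.6% were below 0 and 49.2% above, with a median of 0. None of the 34 passing genes was 2-fold higher (4.88% of all genes) or lower (2.18%). The largest ratios were those of Rab3a, -0.98, and Kif1a, -0.95. Rab3a was at 3.51 RPKM in WT and 1.53 in the knockout, and Kif1a at 21.2 and 10.7. Counting error alone (95% interval of the read ratio, with no pseudocount) gave -2.05 to -0.47 for Rab3a and -1.12 to -0.84 for Kif1a. Syt11 and Nlgn3 followed with -0.94 and -0.89. Counting intervals of the 34 passing genes lay below 0 for 13 and above 0 for 1, which was not counted over all genes. With a pseudocount of 0.1 the count of 2-fold lower genes became 5 (Rab3a, Rab3c, Bsn, Nlgn3 and Grin1), and with TPM scaling, which raised the values against the fixed 0.5, it was also 5 (Syt11, Rab3a, Kif1a, Nlgn3 and Grin1). With the same scaling at the mean level of the deposited values, added after seeing the data, it was 1 (Rab3a). Pan-neuronal markers summed to 338 RPKM in WT and 193 in the knockout, 17 of 18 below 0 with a median of -0.78. The 12 mesoderm and muscle markers summed to 8.11 and 291 RPKM, with 2 and 12 of them at 1 RPKM or more, and neural progenitor markers to 754 and 531. The part of these differences in the synaptic values was not tested.

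By day 10 the knockout and WT levels of synaptic genes were alike in the median, -0.02, with 16 ratios above 0 and 19 below (54.8 and 44.6% of all genes, median 0.06). Again no gene was 2-fold higher (8.26% of all genes) or lower (1.96%). The largest ratios were in opposite directions. Nlgn3 was at 1 RPKM in WT and 2.38 in the knockout, a ratio of 0.94 with a counting interval of 0.90 to 1.62. Gria2 was at 8.58 and 4.34 RPKM, a ratio of -0.91 with an interval of -1.18 to -0.80. Nlgn3 had been lower in the knockout on day 6, and Gria2 had been equal. Syn2 and Syt4 had ratios of -0.72 and -0.71. Counting intervals of the 34 passing genes lay above 0 for 11 and below 0 for 13 (not counted over all genes). Pan-neuronal markers summed to 3309 RPKM in WT and 3226 in the knockout, while the 11 fibroblast markers summed to 48.97 and 706 RPKM, with 8 and 11 of them at 1 RPKM or more, whose part was not tested. Over both days, limma called none of the 34 genes (0.08% of all genes higher, 0.00727% lower). The smallest adjusted p was 0.204, for Syt4 with -0.65 (SE 0.16). At an unadjusted p under 0.05, Syt4 and Syn1 were lower (5.02% of all genes) and none was higher (8.79%). No gene was 2-fold different in the same direction on both days (2.11% of all genes higher, 0.372% lower).

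Dkk treatment of the knockout was accompanied on day 6 by slightly higher synaptic levels. Against the untreated knockout, 27 of 35 ratios were above 0 and 8 below, with a median of 0.20. Over all genes, 50.9% were above 0 and 47.8% below, with a median of 0.006. Of the 34 passing genes, 2 were at least 2-fold higher (2.18% of all genes) and none lower (3.57%). Their counting intervals lay above 0 for 12 and below 0 for 1 (not counted over all genes). Kif1a was at 10.7 RPKM without and 26.1 with Dkk, a ratio of 1.24 with a counting interval of 1.15 to 1.42. Gria3 was at 1.83 and 4.78 RPKM, a ratio of 1.18 with an interval of 0.91 to 1.85. WT levels on that day were 21.2 RPKM for Kif1a and 3.56 RPKM for Gria3. The 3 SFEB comparisons of conditions on a day share their libraries, so a high or low value in 1 library enters 2 of them. A pseudocount of 0.1 raised the number of 2-fold higher genes to 5. Beside these values, mesoderm and muscle markers summed to 291 RPKM without and 26.65 with Dkk, and pan-neuronal markers to 193 and 232.

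On day 10 the Dkk-treated knockout had 1 gene at least 2-fold higher (1.7% of all genes) and 2 lower (5.23%) than the untreated one, with a median of -0.14 (-0.007 over all genes). Nrxn3 was at 4.9 RPKM without and 1.63 with Dkk, a ratio of -1.34 with a counting interval of -1.87 to -1.30. Gria1 was at 2.5 and 0.94 RPKM, a ratio of -1.06. In the other direction Gabra2 was at 0.31 and 1.22 RPKM, a ratio of 1.09 with an interval of 1.29 to 2.68. All of these levels are low, and with a pseudocount of 1 only Nrxn3 was still 2-fold different. Fibroblast markers summed to 706 RPKM without and 76.8 with Dkk, whose part was not tested. Limma over both days called none of the 34 (0.0145% of all genes higher, 0.0291% lower), with a smallest adjusted p of 0.617 for Syt4 (0.53). At an unadjusted p under 0.05, Syt4 and Gabra2 were higher (1.81% of all genes) and none was lower (3.95%). None was 2-fold different the same way on both days (0.364% of all genes higher, 1.56% lower).

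Set against WT, the Dkk-treated knockout had a median ratio of -0.07 on day 6 (0.02 over all genes), with no gene 2-fold higher (1.58% of all genes) or lower (0.976%). The largest day 6 ratios were those of Rab3a, -0.72 (3.51 RPKM in WT and 1.94 with Dkk), and Dlg4, 0.70 (5.09 and 8.57 RPKM). On day 10 the median was -0.27, and 24 of 35 ratios were below 0, against a median of 0.04 and 46.99% below 0 over all genes. TPM scaling shifted the median of all genes by -0.13 in this comparison. Nlgn3 alone was 2-fold higher (4.59% of all genes) and Syn2 alone 2-fold lower (1.68%). Nlgn3 was at 1 RPKM in WT and 3.18 with Dkk, a ratio of 1.29 with a counting interval of 1.36 to 1.99. Syn2 was at 5.87 and 2.54 RPKM, a ratio of -1.07 with an interval of -1.44 to -0.97. For Nlgn3 the untreated knockout lay between them at 2.38 RPKM, and for Syn2 at 3.37 RPKM. No gene was 2-fold different the same way on both days (0.496% of all genes higher, 0.294% lower).

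**Figure D3:**
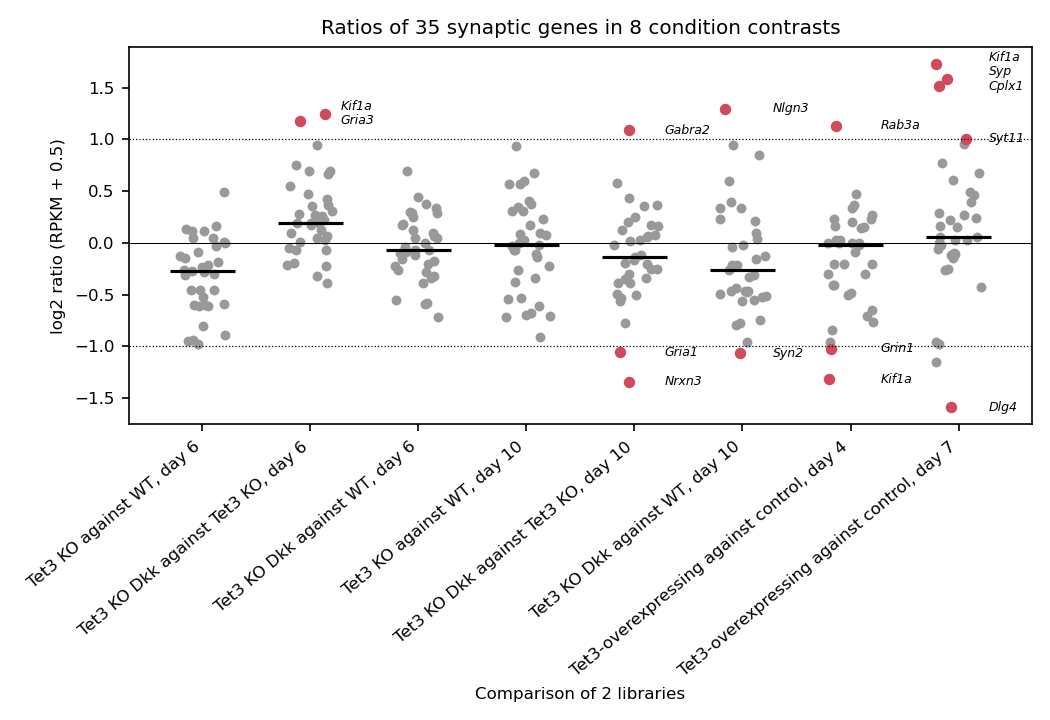
Log2 ratios, from log2(RPKM + 0.5), of the 35 synaptic genes (points) in the 8 comparisons of conditions, each between 2 libraries. Black bars are medians, dotted lines mark 2-fold, and named red points are genes past 2-fold that met the filter; the grey point below -1 in the last column is Syn2, which did not meet the filter in FBS.

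In FBS culture the ratios of synaptic genes with Tet3 overexpression lay on both sides of 0 on each day, 13 above and 18 below on day 4 and 21 above and 13 below on day 7. Over the 12387 genes compared, 40.7% were above 0 and 58.7% below on day 4, and 47.8 and 51.9% on day 7. The counts above and below 0 and the medians for synaptic genes cover all 35, of which 17 met the filter. Values over all genes cover only those past the filter. The pseudocount draws ratios of genes below the filter towards 0, so these values are not matched. The day 7 control library stood apart from the other FBS libraries. Its pan-neuronal markers summed to 66.1 RPKM, against 214, 332 and 285 in the others, and 11 of the 14 markers past the filter were 2-fold higher in day 7 overexpressing cells. Its fibroblast markers summed to 433 RPKM, against 56.9 to 121, and its pluripotency markers to 936.9, against 2466 to 3736. Each day 7 ratio rests on that library, and the day 4 comparison is the value without it. On day 4 the median ratio over all 35 synaptic genes was -0.02 (-0.07 over all genes past the filter). Of the 17 passing genes, 1 was at least 2-fold higher (1.72% of all genes) and 2 were lower (3.47%). Rab3a was at 1.95 RPKM in control against 4.87 RPKM with overexpression, a ratio of 1.13 with a counting interval of 0.96 to 1.68. Kif1a was at 26.3 and 10.25 RPKM, a ratio of -1.32 with an interval of -1.45 to -1.27, and Grin1 at 1.9 and 0.68 RPKM, a ratio of -1.02. On day 7 the median was 0.06 (-0.03 over all genes), with 4 genes higher (6.96% of all genes) and 1 lower (11.1%). Kif1a now differed in the opposite direction, at 4.74 and 16.9 RPKM, a ratio of 1.73 with an interval of 1.70 to 1.96. Syp, Cplx1 and Syt11 were also higher, with ratios of 1.58, 1.51 and 1.01. Dlg4 was lower, at 7.71 and 2.23 RPKM, a ratio of -1.59 with an interval of -2.35 to -1.27. Rab3a, higher on day 4, was at 3.05 and 3.11 RPKM on day 7.

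Within control cells, Vamp2 and Dlg4 were at least 2-fold higher on day 7 than on day 4 (11.5% of all genes), and Syp, Syn1, Cplx1, Kif1a and Grin1 at least 2-fold lower (8.71%). Vamp2 went from 4.26 to 12.5 RPKM and Kif1a from 26.3 to 4.74. Within overexpressing cells no gene differed by 2-fold between the days (3.49% of all genes higher, 1.2% lower). The day 7 contrast and the control time course share the day 7 control library, and its part in them was not tested. Limma over both days called none of the 34 genes with overexpression (0.0145% of all genes higher, 0.00727% lower), with a smallest adjusted p of 0.171 for Dlg4 (-1.12). Limma tested genes at 1 RPKM in any of the 10 libraries, and only 17 of the 34 reached that in FBS. Genes at or near 0 there, such as Nlgn1, listed at 0 in every FBS library, could not be called. Without adjustment, at p under 0.05, Syn1 was higher (6.85% of all genes) and Dlg4, Gria3, Syn2, Sv2a and Nlgn2 lower (11.1%). Limma called none between the FBS days (0.109% of all genes higher, 0% lower), with a smallest adjusted p of 0.173 for Syn1. There, at an unadjusted p under 0.05, Vamp2 was higher (10.3% of all genes) and Syn1, Sv2a, Nrxn2 and Syt4 were lower (6.45%). Of the genes named by unadjusted p, Syn2 and Syt4 were under 1 RPKM in every FBS library. None was 2-fold different the same way on both days of overexpression (0.807% of all genes higher, 0.912% lower).

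**Figure D4:**
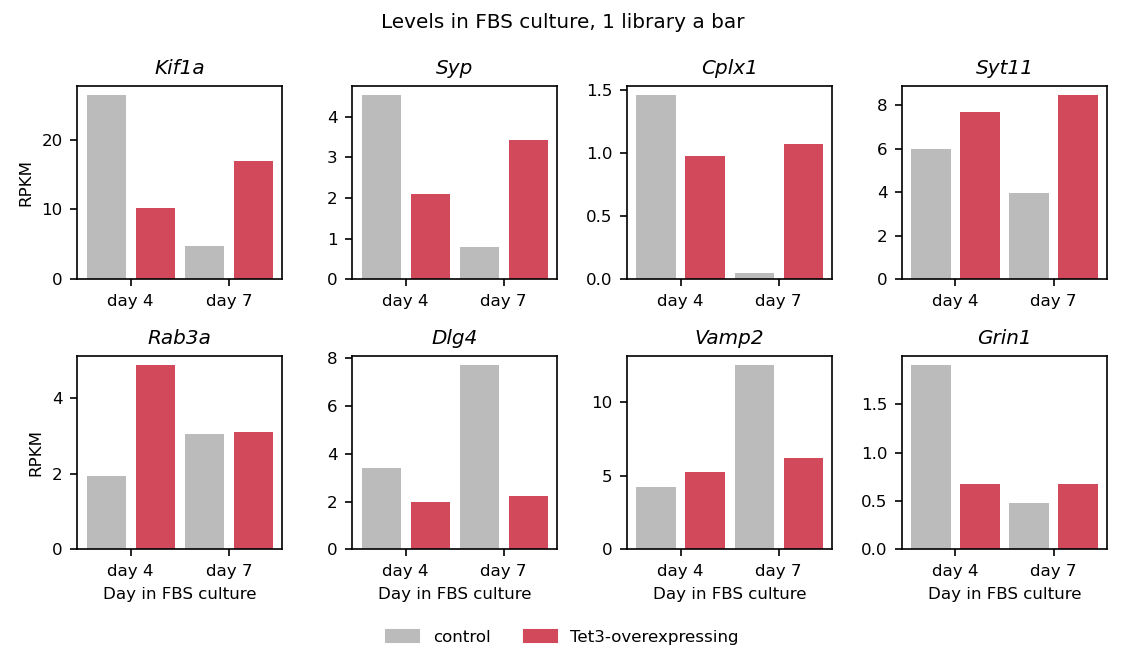
Levels of 8 synaptic genes in FBS culture as RPKM (bars from 0, 1 library each) in control (grey) and Tet3-overexpressing cells (red) on day 4 and day 7. Kif1a is lower with overexpression on day 4 and higher on day 7, and the day 7 control bar is the lowest of its gene for Kif1a, Syp, Cplx1, Syt11 and Grin1 and the highest for Dlg4 and Vamp2.

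Among the 138 other synaptic genes, 1 was 2-fold higher and 2 were 2-fold lower on both days in the knockout against WT (2.11 and 0.372% of all genes). With Dkk against the untreated knockout, 1 was 2-fold lower on both days (1.56%). Limma called none of the 138 in either contrast. At an unadjusted p under 0.05, 9 were higher and 14 lower in the knockout (8.79 and 5.02% of all genes), 6 higher and 7 lower with Dkk (1.81 and 3.95%), and 4 higher and 11 lower with overexpression (6.85 and 11.1%). In the knockout Grm7, a presynaptic glutamate receptor, was at 0.84 RPKM in WT against 0.05 in Tet3 KO on day 6, then at 3.39 against 0.24 RPKM (limma log2 -1.84, adjusted p = 0.139). Grm2, another such receptor, was at 2.56 against 0.82 RPKM, then at 12.05 and 5.09 RPKM (-1.19, adjusted p = 0.213). Doc2b, a calcium sensor of release, was higher, at 0.3 and 1.23 RPKM and then at 1.14 and 3.9 RPKM (1.27, adjusted p = 0.116). With Dkk, Glra1, a glycine receptor subunit, was at 1.24 RPKM without and 0.13 with treatment on day 6, then at 5.91 and 0.72 RPKM (-1.93, adjusted p = 0.141). No gene of these lists was 2-fold different the same way on both days of Tet3 overexpression (0.807% of all genes higher, 0.912% lower). Between the FBS days Cnksr2, a scaffold protein, went from 0.7 to 3.24 RPKM in control and from 0.34 to 1.39 RPKM in overexpressing cells (1.40, adjusted p = 0.0951).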

How the data were processed

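The 35 genes and the other gene lists were chosen with earlier results of these data known, and lists are described by counts and medians. The authors deposited 1 table of RPKM values with 2 decimals, made from total RNA with a SOLiD kit and instrument, per the labels' protocols. The submitters' processing notes name HTSeq and the mouse build mm9. For the aligner, annotation, strand setting and handling of multi-mapped reads no source used here gives an entry, so values of close paralogs and overlapping genes are uncertain. Every column matched 1 sample title.

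RPKM values are not counts, so no count model was run. Ratios are log2(RPKM + 0.5) of 1 library minus another, which understates changes of low genes. A gene entered a comparison if any library of its culture reached 1 RPKM (12912 genes in SFEB, 12387 in FBS), and 2-fold differences were counted. Limma 3.58.1 (R 4.3.3) fitted log2(RPKM + 0.5) of 13757 genes in all 10 libraries with culture, condition and day as additive terms, 3 residual degrees of freedom and Benjamini-Hochberg adjustment, with an adjusted p under 0.05 called. The fit was run on simulated data with independent noise and shifts added to the SFEB day 10 libraries. That run cannot show whether days and conditions serve as replicates. Days and conditions stand in for replicates, so p-values measure only the spread between these libraries. Depth was estimated from the steps between low RPKM values, with transcript lengths of GENCODE vM21. It is uncertain because that annotation may differ from the one used by the authors, and in 6 libraries the next best total was about 2 times the one chosen, which would narrow the intervals. From it come 95% Clopper-Pearson intervals of read ratios, which cover counting error only. Of 259 list genes, 258 were matched, 3 through an older symbol. Promoter windows are RefSeq's (GRCm38.p6). Values in each SFEB library, and FBS values singly or as a range, are given for the most abundant gene of each role, the 5 genes with the largest smallest gain from day 6 to day 10, and the 2 largest ratios of each condition comparison and day. Of the other synaptic genes, up to 5 per contrast that differed 2-fold the same way throughout are named, except 1 that is not reported here. Other genes given with all their values were chosen after these were seen. Alternatives were pseudocounts of 0.1 and 1, no filter, TPM and median-of-ratios scaling, and for limma each culture alone and each SFEB condition left out. Added after seeing the data were TPM scaling with the mean level kept, so that the pseudocount and filter kept their weight, and counts over the genes at 1 RPKM on day 6.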

Additional observations from a re-analysis of the deposited data

Results flagged for a closer look

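Kif1a, the vesicle kinesin, differed in opposite directions on the 2 days of Tet3 overexpression in FBS culture. Its log2 ratio of overexpressing against control cells was -1.32 on day 4 and 1.73 on day 7, each between single libraries. Control cells were at 26.3 RPKM on day 4 and 4.74 on day 7, and overexpressing cells at 10.25 and 16.9 RPKM. The difference between the days was not tested, as no day has a second library of either condition. The day 7 control library, whose pan-neuronal markers summed to 66.1 RPKM against 214 to 332 in the other FBS libraries, enters 1 of the 2 ratios.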

How the results depend on the processing

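The rise between the SFEB days held in each setting tried: over all members tested limma called 26 to 31 higher and none lower, against 30 in the reported fit. Restricted to the 20 genes at 1 RPKM on day 6, the limma count was 17 and the 2-fold counts were 15 in WT, 17 in the knockout and 17 with Dkk, as fewer genes were tested. Leaving out WT, Tet3 KO or Tet3 KO Dkk gave 27 to 30 genes. Without Tet3 KO, Pclo and Dlgap1 were not tested, and without Tet3 KO Dkk, Gabra2 was not. For conditions, limma called none of these genes in any setting. No ratio or change of a called gene reversed. Over all counts and settings, 30 counts moved by over 1.5 times and 200 did not. With a pseudocount of 0.1 the lower counts became 5 (knockout against WT, day 6), 1 (the same, day 10), 1 and 2 (Dkk-treated knockout against WT, day 6 and day 10), and 4 and 3 (overexpression, day 4 and day 7). The higher counts became 5 (Dkk-treated against untreated knockout, day 6) and 1 (knockout against WT, day 10). With a pseudocount of 1, Dkk-treated against untreated knockout on day 10 had 0 higher and 1 lower, and against WT 0 lower. Overexpression then had 0 higher and 1 lower on day 4 and 2 higher on day 7, and control cells between days 1 higher and 3 lower. TPM scaling gave 5 lower in the knockout on day 6, 1 higher and 1 lower on day 10, 2 lower in the Dkk-treated knockout against WT on day 10, and 4 and 3 lower with overexpression on day 4 and day 7. These TPM counts mix scaling with a pseudocount and filter that weigh less. With the mean level kept (added after seeing the data), 2 counts moved: 1 lower in the knockout on day 6, and 2 lower in the Dkk-treated knockout against WT on day 10. Median-of-ratios scaling gave 1 lower with overexpression on day 4, and no filter 2 lower on day 7. Depth limits ratios of low genes: Cplx1 had 2 estimated reads in the day 7 control and a counting interval of 2.20 to 7.34 for overexpression. The labels give no replicate numbers, and the day term of limma was fitted with condition as a term.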
